A study of Mus musculus with 10 samples.

Results

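Cells make cholesterol from lanosterol by a chain of enzymes in the endoplasmic reticulum, and 9 genes of this late branch were followed here in the jejunum of mice. They were chosen by name, as the genes Cyp51, Tm7sf2, Msmo1, Nsdhl, Hsd17b7, Ebp, Sc5d, Dhcr7 and Stard4, and they make up 9 of the 22180 genes tested. Each was read by a single Affymetrix probe set. The first 8 encode enzymes, whereas Stard4 encodes a carrier that moves sterol between membranes and is no enzyme of the branch.

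The samples were 10 pieces of jejunum from female mice aged 10 to 12 weeks, 5 labelled knockout (numbered 1 to 5) and 5 labelled control (numbered 6 to 10), with 1 array per sample. In both groups the 2 alleles of Pcyt1a, the gene of the rate-limiting enzyme of phosphatidylcholine synthesis from choline, were flanked by LoxP sites. Only knockouts had VilCreERT2, a Cre recombinase that tamoxifen activates and that the villin promoter confines to the gut epithelium. Tamoxifen was given to both groups for 5 days, so the drug was shared and the Cre transgene was not. After 4 days of high fat feeding and an overnight fast, 3 cm of mid small intestine was taken from each. The series text adds re-feeding, which no sample label mentions, and the source labels of the controls describe them as lacking phosphatidylcholine synthesis, against their titles and genotype. No label says that each sample came from a different mouse, so p-values reflect only sample-to-sample spread, which may be technical.

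The steps studied here remove methyl groups from lanosterol, saturate or shift double bonds in its ring system and end in cholesterol. The genes are classical targets of SREBP2, a membrane-bound transcription factor that is released by proteolysis when sterol in the endoplasmic reticulum is low. The gut epithelium both absorbs cholesterol and makes it, and its dividing crypt cells need sterol for new membranes. In whole tissue, fewer cells of a type and less RNA per cell cannot be told apart.

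The labels were checked on Pcyt1a, which was lower on every knockout array, at 7.46 ± 0.25 against 9.39 ± 0.17 (mean log2 intensity, SD, n = 5 each), which is a difference of -1.93 on the log2 scale (SE 0.13, adjusted p = 9.577e-05 by limma). Markers of enterocytes, the absorptive cells, were bright on all arrays, with a mean log2 intensity of their 9 measured genes between 12.83 and 13.06. Among the 9, only Lct had an unadjusted limma p under 0.05, and it was lower in knockouts at -0.45 (SE 0.13). The villus tip list (6 of 6 measured) ranged from 9.34 to 9.89 in knockouts and from 9.49 to 9.99 in controls. Of its genes, 4 had lower and 2 higher means in knockouts, and 0 had an unadjusted limma p under 0.05. The smooth muscle, Paneth cell and crypt and cycling cell lists differed more widely between arrays. The smooth muscle list (8 of 8 genes measured) ranged from 6.91 to 8.66 in knockouts and from 6.42 to 11.03 in controls, with control 7 at 11.03 and control 9 at 9.65. The Paneth cell list (7 of 8 measured) ranged from 9.66 to 12.16 in knockouts and from 9.57 to 11.70 in controls, lowest on control 6 and knockout 2. The crypt and cycling cell list (7 of 8 measured) ranged from 7.70 to 8.65 in knockouts and from 7.02 to 8.10 in controls, and 6 of its 7 genes were higher in knockouts at an unadjusted limma p under 0.05, against 8.29% of all genes. The seventh, the stem cell marker Lgr5, stood at -0.42 (SE 0.19). No intensity on these arrays is 0, and the dimmest gene of the crypt list had a mean of 6.23. At an unadjusted limma p under 0.05, in either direction, lay 13.9% of all genes, 4 of 6 blood endothelial markers, 4 of 7 macrophage markers and 4 of 6 goblet cell markers. The endothelial list ranged from 6.36 to 7.15 in knockouts and from 5.52 to 6.50 in controls, and the macrophage list from 7.19 to 7.96 and from 6.77 to 7.41, with 6 of 6 and 7 of 7 genes higher in knockouts. The goblet list ranged from 11.29 to 11.72 in knockouts and from 11.49 to 11.91 in controls. Its 4 genes under that p, Muc2, Fcgbp, Clca1 and Tff3, were lower in knockouts. The other goblet genes, Agr2 at 0.14 (SE 0.22) and Spink4 at 0.43 (SE 0.31), had higher means in knockouts.

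Among the 9 genes, Nsdhl, Cyp51 and Hsd17b7 stood higher in knockouts, by factors of 1.52, 1.56 and 1.39, and for the other 6 the ratio of knockout to control lay between 0.966 and 1.12. None passed an adjusted p of 0.05 over all genes by limma, a threshold that 0.0271% of all genes passed. At an unadjusted p under 0.05 with knockouts higher there were 3 of 9, against 8.29% of all genes, and 0 of 9 were lower at that threshold, against 5.56%. Means were higher in knockouts for 7 of 9, against 46.8% of all genes. The median difference of the 9 was 0.12 on the log2 scale, against -0.01 over all genes. The adjusted p-values of the 9 ran from 0.120 to 0.913.

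**Figure D1:**
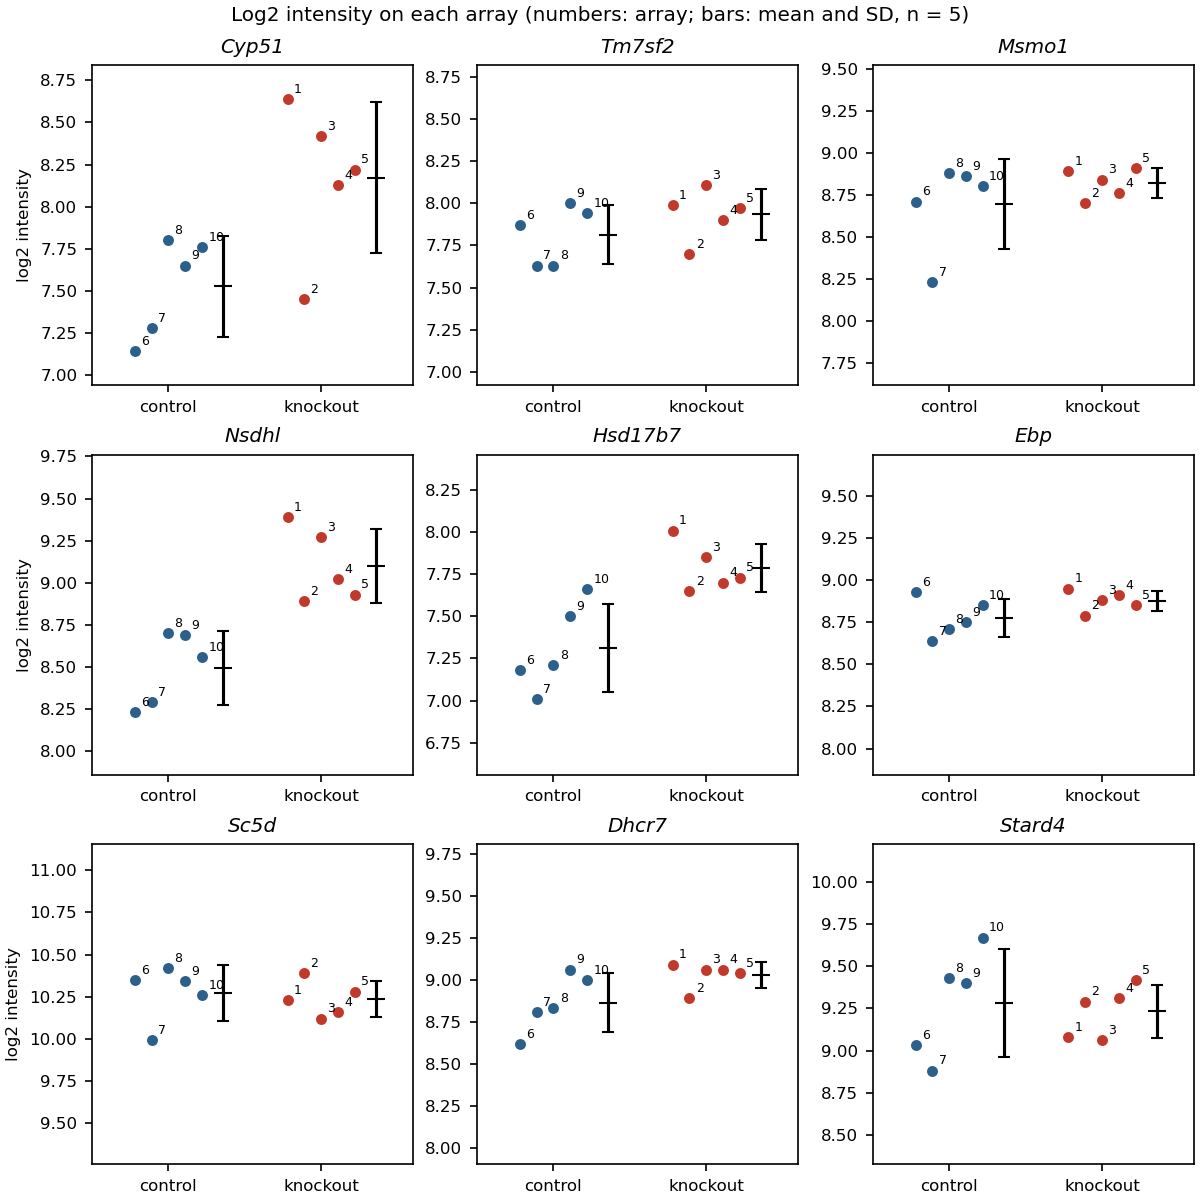
Log2 intensity (vertical axis, spanning the same range of log2 units in every panel) of the 9 genes on each control (blue) and knockout (red) array, numbered as in the labels, with the group mean and SD as a black bar (n = 5). Nsdhl is the panel in which the groups do not overlap; for Cyp51 and Hsd17b7 a single knockout array or a single control array closes the gap.

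The branch opens with the removal of a methyl group by Cyp51, the cytochrome P450 that demethylates lanosterol. Cyp51 read 8.64, 7.45, 8.42, 8.13 and 8.22 on knockouts 1 to 5 and 7.14, 7.28, 7.80, 7.65 and 7.76 on controls 6 to 10 (log2 intensity). Knockouts 1, 3, 4 and 5 lay above all 5 controls, whereas knockout 2 lay below 3 of them, so the groups overlapped. Group means were 8.17 ± 0.45 (knockout) and 7.53 ± 0.30 (control; SD, n = 5 each). The log2 fold change was 0.65 (SE 0.21, 95% interval 0.19 to 1.10), with a limma p of 0.00920 and an adjusted p of 0.206, and the two-sided exact permutation p was 0.03175. Without knockout 2, the lowest knockout for Cyp51, the difference was 0.83 with a limma adjusted p of 0.0340, in a fit that called 2.04% of all genes. Over the 10 fits without 1 array the difference ran from 0.53 to 0.83 and the limma adjusted p from 0.0340 to 0.437.

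The double bond left by Cyp51 is reduced by Tm7sf2 or by Lbr, the lamin B receptor, a nuclear envelope protein with the same reductase activity. Tm7sf2 ranged from 7.70 to 8.11 in knockouts and from 7.63 to 8.00 in controls, and the ranges overlapped over most of their length. Controls 7 and 8 lay below all knockouts, and knockout 3 lay above all controls. Its log2 fold change was 0.12 (SE 0.11, 95% interval -0.11 to 0.35, limma adjusted p = 0.661). Lbr, which was not among the 9, read 9.73, 8.52, 9.52, 9.45 and 9.07 in knockouts and 7.98, 8.86, 8.60, 8.87 and 8.68 in controls. Its difference was 0.66 (SE 0.23, limma adjusted p = 0.231), and knockout 2 was again the knockout that lay among the controls.

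The next enzymes act together to strip the remaining pair of methyl groups: Msmo1 oxidises them, Nsdhl removes the resulting carboxyl group while oxidising the ring alcohol, and Hsd17b7 reduces the ketone back to an alcohol. Nsdhl read 9.39, 8.89, 9.27, 9.02 and 8.93 in knockouts and 8.23, 8.29, 8.70, 8.69 and 8.56 in controls. Every knockout array lay above every control array, the closest pair being knockout 2 and control 8, which were 0.19 apart; knockouts lay above controls without overlap in 1.64% of all genes. In none of the 9 did all knockouts lie below all controls, which was so for 0.965% of all genes. Group means were 9.10 ± 0.22 (knockout) and 8.49 ± 0.22 (control; SD, n = 5 each). The log2 fold change was 0.61 (SE 0.13, 95% interval 0.32 to 0.89), with a limma p of 6.33e-04 and an adjusted p of 0.120. The exact permutation p was 0.00794, the smallest that 5 against 5 arrays can give. The limma adjusted p was 0.0395 without knockout 2, the lowest knockout for Nsdhl. Over the 10 fits without 1 array it ran from 0.0395 to 0.330.

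Hsd17b7 read 8.01, 7.65, 7.85, 7.70 and 7.73 in knockouts and 7.18, 7.01, 7.21, 7.50 and 7.66 in controls. Knockout 2 and control 10 overlapped by 0.01, the step at which the deposited values are rounded, and 4 of 5 controls lay below all knockouts. Group means were 7.79 ± 0.14 (knockout) and 7.31 ± 0.26 (control; SD, n = 5 each). The log2 fold change was 0.48 (SE 0.13, 95% interval 0.20 to 0.76, limma adjusted p = 0.158), and the exact permutation p was 0.0159. The limma adjusted p was 0.0849 without knockout 2, the lowest knockout for Hsd17b7. Over the 10 fits without 1 array it ran from 0.0849 to 0.390.

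Msmo1, which acts first of these, had the smallest difference among them. It read 8.89, 8.70, 8.84, 8.76 and 8.91 in knockouts and 8.71, 8.23, 8.88, 8.86 and 8.80 in controls. Control 7 was the single array far from the rest, and the other controls lay inside the range of the knockouts. The log2 fold change was 0.12 (SE 0.12, 95% interval -0.14 to 0.39, limma adjusted p = 0.696). It was 0.0075 without control 7 and 0.154 without knockout 2, and ran from 0.0075 to 0.17 over the 10 fits without 1 array. Taken within each array, the log2 ratio of Nsdhl to Msmo1 averaged 0.28 ± 0.19 for knockouts and -0.20 ± 0.19 for controls (SD, n = 5 per group), a change of 0.48. The ratio of Hsd17b7 to Msmo1 changed by 0.35, and that of Nsdhl to Hsd17b7 by 0.13. These 3 pairs were picked after their values were seen, so the changes are a description with no test. Knockout and control ranges overlapped for all 3 ratios. They were 0.02 to 0.50 against -0.48 to 0.06 for the first and -1.18 to -0.88 against -1.67 to -1.14 for the second. For the third they were 1.20 to 1.42 against 0.90 to 1.49, with a pooled SD of 0.17.

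**Figure D2:**
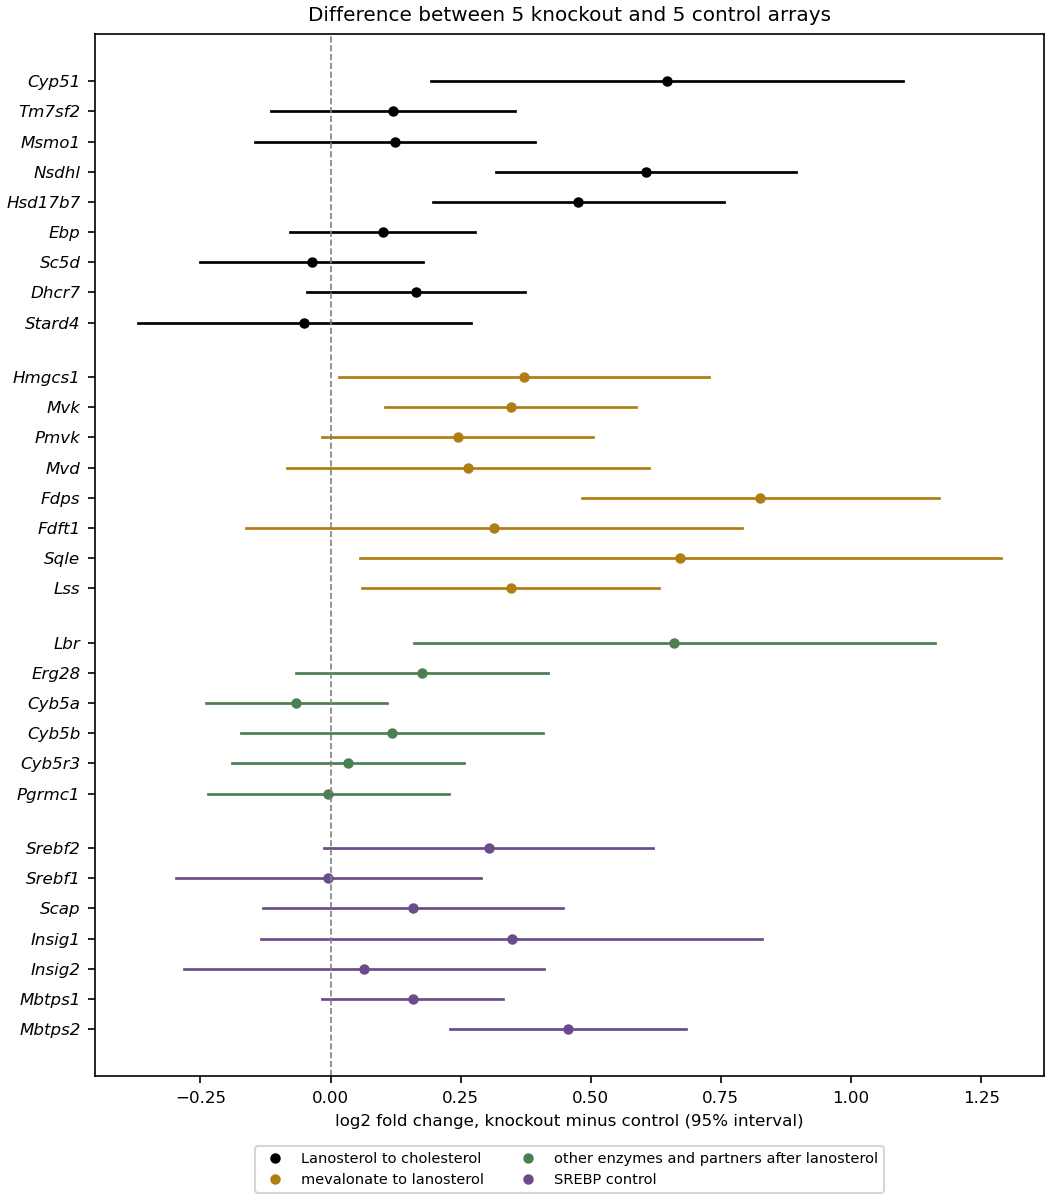
Log2 fold change, knockout minus control, with its 95% limma interval (horizontal axis), for the 9 genes (black) and for measured genes of the mevalonate branch (gold), partners after lanosterol (green) and SREBP control (purple). The intervals of Cyp51, Nsdhl and Hsd17b7 lie above 0, while those of the other 6 genes of the branch include 0.

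RefSeq promoter windows of the mouse assembly GRCm38.p6, each 300 bases from 250 before to 50 after a gene start, were found for 8 of the 9 genes in 10 windows, 3 of them for Dhcr7, and none was used for Stard4. The stretches of 250 bases before the start are printed, 5′ to 3′ on the gene's strand, for the 3 genes with the largest differences and for Msmo1 as the neighbour in the pathway that differed little. Capitals mark CCAAT or its complement ATTGG, the box bound by NF-Y, a partner of SREBP2 at sterol genes, and TCACNNCA on either strand, a loose form of the sterol regulatory element.
Cyp51 (chr5:4104698-4104947, minus strand): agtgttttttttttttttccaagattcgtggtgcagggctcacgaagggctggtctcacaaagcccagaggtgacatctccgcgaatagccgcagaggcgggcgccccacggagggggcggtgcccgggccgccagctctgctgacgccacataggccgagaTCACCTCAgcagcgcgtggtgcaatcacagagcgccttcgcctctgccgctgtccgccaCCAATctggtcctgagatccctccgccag
Nsdhl (chrX:72918271-72918520, plus strand): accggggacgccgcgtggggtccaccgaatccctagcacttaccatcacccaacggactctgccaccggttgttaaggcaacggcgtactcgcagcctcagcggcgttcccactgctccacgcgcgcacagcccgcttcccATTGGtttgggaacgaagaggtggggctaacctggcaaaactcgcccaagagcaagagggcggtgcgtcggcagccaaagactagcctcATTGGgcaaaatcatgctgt
Hsd17b7 (chr1:169969206-169969455, minus strand): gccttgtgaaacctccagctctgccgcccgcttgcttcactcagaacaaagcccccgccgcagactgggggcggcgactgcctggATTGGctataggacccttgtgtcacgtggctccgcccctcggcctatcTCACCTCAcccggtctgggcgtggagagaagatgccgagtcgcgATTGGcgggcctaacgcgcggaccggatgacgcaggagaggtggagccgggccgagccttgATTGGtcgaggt
Msmo1 (chr8:64733579-64733828, minus strand): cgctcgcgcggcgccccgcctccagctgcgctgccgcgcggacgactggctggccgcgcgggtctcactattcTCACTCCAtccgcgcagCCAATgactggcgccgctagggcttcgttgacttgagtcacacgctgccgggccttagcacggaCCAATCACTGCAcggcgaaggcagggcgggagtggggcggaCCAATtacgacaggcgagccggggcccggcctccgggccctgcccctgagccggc

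Both strands of the full windows were searched, so matches that reach past the start are counted though not printed. CCAAT was present in a window of each of the 8 genes, against 41.1% of the 27025 genes in the table and 37.4% of its 32851 windows. The number of CCAAT matches was 4 for Nsdhl, 3 for Hsd17b7, 3 for Msmo1 and 1 for Cyp51, so Msmo1 held as many as Hsd17b7. GGGCGG, the box bound by Sp1, was also present for 8 of 8 genes, against 38.2% of all genes. The stricter sterol element TCACNCCAC was in none of the 10 windows, against 1.24% of all windows. The loose form TCACNNCA, which also takes in TCACNCCAC and was chosen after the windows were seen, was found for 6 of 8 genes, against 15.7% of all genes. In Cyp51 and in Hsd17b7 it had the same letters, TCACCTCA, beginning 88 and 117 bases before the start. A match is a run of letters and not a measured binding site, and these matches are given without a test.

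The last enzymes rearrange double bonds: Ebp shifts one within the ring system, Sc5d introduces another, and Dhcr7 reduces the one left in dehydrocholesterol to give cholesterol. Dhcr7 read 9.09, 8.89, 9.06, 9.06 and 9.04 in knockouts and 8.62, 8.81, 8.83, 9.06 and 9.00 in controls. All 5 knockouts lay above the control median, but controls 9 and 10 lay within the knockout range. Its log2 fold change was 0.16 (SE 0.10, 95% interval -0.05 to 0.37, limma adjusted p = 0.480), and the exact permutation p was 0.0794. Ebp ranged from 8.79 to 8.95 in knockouts and from 8.64 to 8.93 in controls, with a log2 fold change of 0.10 (SE 0.08, 95% interval -0.08 to 0.28). Sc5d ranged from 10.12 to 10.39 in knockouts and from 9.99 to 10.42 in controls, with a log2 fold change of -0.04 (SE 0.10, 95% interval -0.25 to 0.18). For Ebp and Sc5d the limma adjusted p-values were 0.626 and 0.905. The upper ends of their intervals lay below the log2 differences of Nsdhl, Cyp51 and Hsd17b7, which have intervals of their own. Those of Cyp51 and Hsd17b7, from 0.19 and 0.20 upward, overlapped that of Ebp, and genes were not tested against each other.

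Stard4, the sterol carrier, read 9.08, 9.29, 9.06, 9.31 and 9.42 in knockouts and 9.03, 8.88, 9.43, 9.40 and 9.67 in controls. The highest array was control 10 and the lowest control 7, so the knockouts lay inside the control range. The log2 fold change was -0.05 (SE 0.15, 95% interval -0.37 to 0.27, limma adjusted p = 0.913). It was -0.15 without control 7 and 0.05 without control 10. The control values spanned 0.79, more than in any other of the 9 genes.

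**Figure D3:**
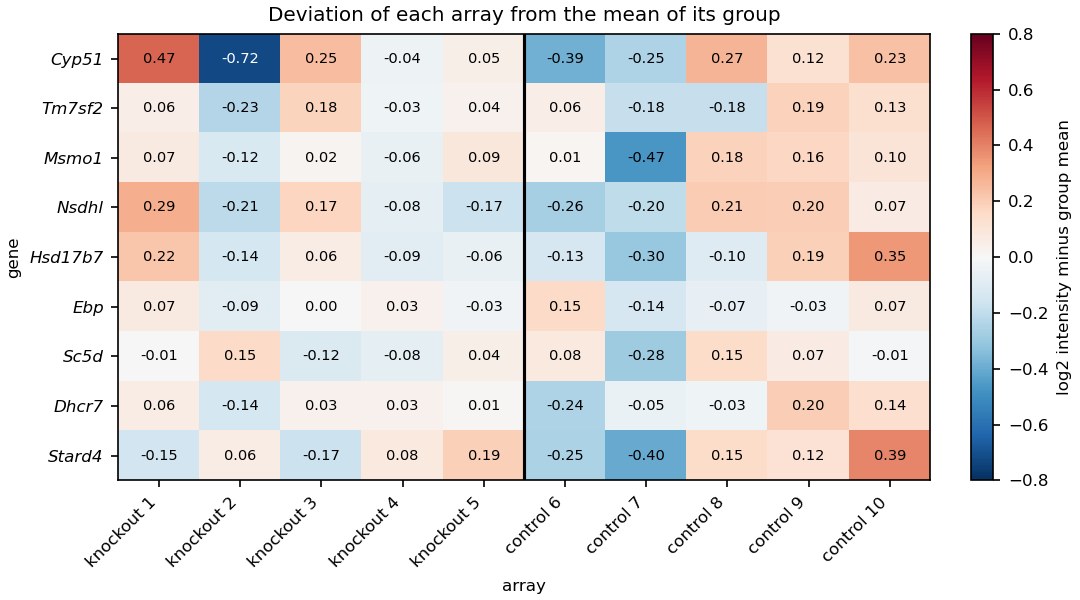
Log2 intensity of each of the 9 genes (rows) on each array (columns) minus the mean of that array's own group, with the knockouts left of the black line. The column of knockout 2 is below 0 for 7 genes and the column of control 7 for all 9, while controls 9 and 10 are above 0 for 8 each.

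Within the groups, several of the 9 genes tended to be low or high on the same arrays. Knockout 2 had the lowest value among knockouts for 7 of the 9 genes, the exceptions being Sc5d and Stard4, and knockout 1 had the highest for 5. Control 7 was below the control mean for 9 of 9 genes and lowest for 6 of them, whereas controls 9 and 10 were above it for 8 each. With group means removed, Pearson r over the 10 arrays was positive for 32 of the 36 pairs of genes, with a median of 0.51 and a range from -0.16 (Sc5d and Dhcr7) to 0.85 (Cyp51 and Nsdhl). All pairs share the same arrays, and other gene pairs on these arrays were not correlated, so these coefficients are a description without background. Spearman rank correlation gave 0.94 for Cyp51 and Nsdhl. For Msmo1 and Sc5d it was 0.32 (Pearson 0.70), and for Sc5d and Stard4 0.28 (Pearson 0.53). Sc5d, with a median Pearson r of 0.14 to the other genes, and Ebp, with 0.21, followed the rest least.

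Marker levels of these arrays are given beside the pattern. Knockout 2 had the lowest crypt and cycling level among knockouts (7.70, the others 8.30 to 8.65), and control 6, lowest in Cyp51, Nsdhl and Dhcr7 of all 10 arrays, had the lowest of all (7.02). Control 7, lowest of all arrays for Hsd17b7, Msmo1, Ebp, Sc5d and Stard4 and sharing the lowest Tm7sf2 value with control 8, had the highest smooth muscle level (11.03). The next arrays in that level went the other way: control 9 (9.65) was above the control mean for 8 of 9 genes and knockout 1 (8.66) was highest among knockouts for 5. Control 10, also above the mean for 8, was at 6.42 in smooth muscle and 7.90 in crypt markers, the latter within the range of the other controls. Knockout 2 was also the highest of all arrays in endothelial (7.15) and macrophage (7.96) markers and lowest in goblet markers (11.29). Among the goblet genes, its Agr2, Spink4, Tff3 and Clca1 lay below the knockout means. Its Muc2 (12.91) and Fcgbp (12.36) lay above them (12.86 and 12.22). With the crypt and cycling level as a covariate, a fit added after the data were seen, the difference was 0.23 for Cyp51 (SE 0.20), 0.41 for Nsdhl (SE 0.15) and 0.37 for Hsd17b7 (SE 0.16), and Dhcr7 stood at 0.0091. The limma adjusted p-values of the first 3 in that fit were 0.748, 0.485 and 0.530, and the unadjusted p was under 0.05 for Nsdhl and Hsd17b7 but not for Cyp51. The crypt list itself was higher in knockouts by 0.62, so the covariate and the genotype carry part of the same difference. Leaving out the 3 arrays highest in smooth muscle markers (control 7, control 9 and knockout 1) gave 0.49 for Cyp51, 0.53 for Nsdhl and 0.38 for Hsd17b7, and Msmo1 and Ebp stood at 0.0058 and 0.03. The limma adjusted p-values of the first 3 were then 0.505, 0.338 and 0.388, and Cyp51 was again the one of them whose unadjusted p was not under 0.05. That fit has fewer arrays and lacks knockout 1, the highest of all arrays for these 3 genes. With the smooth muscle level as a covariate on all 10 arrays, Cyp51 stood at 0.64, Nsdhl at 0.61 and Hsd17b7 at 0.46. Their limma adjusted p-values were 0.189, 0.0928 and 0.1385, and each unadjusted p was under 0.05. The B and plasma cell list (6 of 7 measured) ranged from 6.06 to 6.45 in knockouts and from 5.83 to 7.56 in controls. It was highest on control 8 (7.56) and control 9 (7.03), while its gene Jchain was higher in knockouts by 0.83 (SE 0.34). Control 8 was the highest control for Cyp51, Msmo1, Nsdhl and Sc5d. The part of tissue makeup, that of endothelial, macrophage, goblet and B cells included, was not tested beyond these values.

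**Figure D4:**
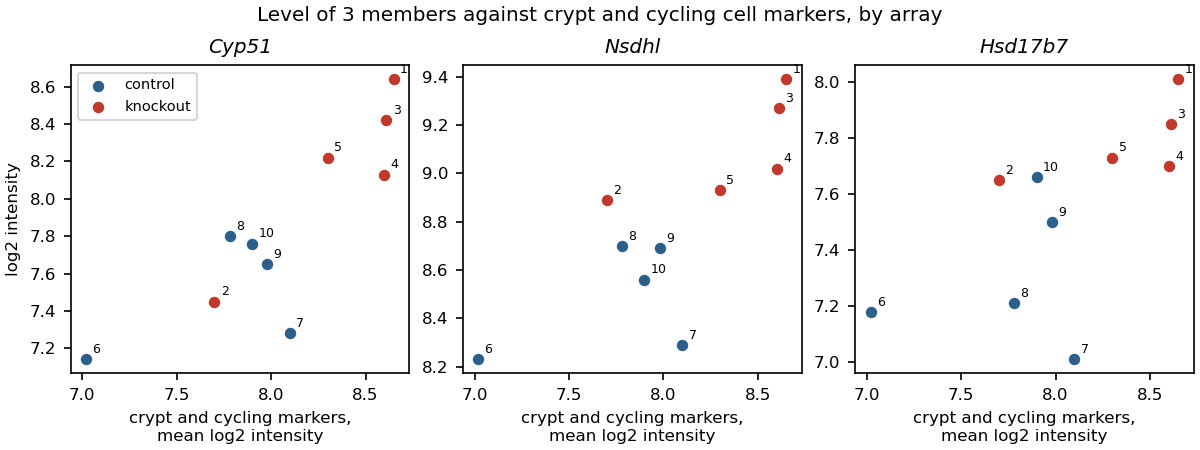
Log2 intensity of Cyp51, Nsdhl and Hsd17b7 (vertical axes) against the mean log2 intensity of 7 crypt and cycling cell markers (horizontal axis) on each numbered control (blue) and knockout (red) array. Knockouts 1, 3, 4 and 5 lie to the right of all controls, and knockout 2, at 7.70, lies among the controls in marker level. Its Nsdhl value is above every control, its Cyp51 value below 3 controls and its Hsd17b7 value below control 10.

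Genes that feed the branch were compared from lists. Of 11 listed genes from acetyl-CoA to lanosterol 8 were analysed here. None of the 8 passed over all genes, and 8 of 8 had higher means in knockouts, against 46.8% of all genes. With knockouts higher, 5 had an unadjusted limma p under 0.05, against 8.29% of all genes. Their median difference was 0.35, against 0.12 for the 9 genes after lanosterol. Fdps, which makes farnesyl diphosphate, read 8.47, 7.79, 8.46, 8.13 and 7.77 in knockouts and 7.09, 7.18, 7.48, 7.24 and 7.50 in controls. These groups did not overlap (difference 0.83, SE 0.16, limma adjusted p = 0.111), as knockouts lay above controls without overlap in 1.64% of all genes. Squalene epoxidase Sqle stood at 0.67 (SE 0.28, limma adjusted p = 0.319) and Hmgcs1, which makes the precursor of mevalonate, at 0.37 (SE 0.16, limma adjusted p = 0.340).

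Of 8 listed partners after lanosterol 6 were analysed here, and 0 passed. Apart from Lbr, the largest values were 0.18 for Erg28, a scaffold of the demethylation enzymes, and 0.12 for the electron carrier Cyb5b, and the list median was 0.08. In the SREBP list 7 of 9 genes were analysed here, and 0 passed. Means were higher for 6 of 7, against 46.8% of all genes, and the median was 0.16. Mbtps2, the protease that makes the second cut releasing SREBP, ranged from 7.01 to 7.48 in knockouts and from 6.73 to 6.91 in controls. Its groups did not overlap (difference 0.46, SE 0.10, limma adjusted p = 0.128), against the same 1.64% of all genes. Insig1, which holds SREBP in the endoplasmic reticulum, stood at 0.35 (SE 0.22) and Srebf2 itself at 0.30 (SE 0.14), with limma adjusted p-values of 0.517 and 0.378. Of 11 listed sterol transport and storage genes 9 were analysed here, and 0 passed. Their median was -0.02, with 4 of 9 higher in knockouts, against 46.8% of all genes, and 5 lower. The largest values were 0.29 for Stard5, a relative of Stard4, and -0.20 and -0.18 for the sterol transporters Gramd1b and Gramd1a.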

How the data were processed

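RNA was labelled from 400 ng total RNA per sample. The authors deposited intensities on the linear scale, which the submitters' processing notes trace to RMA (background correction, normalisation between arrays, probe summary) in version 1.4.1.46 of Affymetrix Expression Console. Log2 was taken first. The log2 values lie on steps of 0.01, which limits small differences. The build behind the probe sets is not given in the sources used here. Of 34472 probe sets, 23521 had a single gene symbol in the platform annotation, 1814 several and 9137 none; the brightest probe set on average stood for a gene. The genotypes were contrasted by limma (version 3.58.1, R version 4.3.3; lmFit and eBayes, two-sided, 22180 genes, no intensity filter, Benjamini-Hochberg adjustment over all, called under 0.05). Single genes were also compared by exact permutation over the 252 splits of the arrays. A marker level is the mean log2 intensity of the list's genes on an array. The code was tested on simulated data.

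The 9 genes, the lists and the alternatives were chosen with earlier results of these data known. Named are the 9 genes, Pcyt1a, and per pathway list the genes called or else the 3 with the largest absolute difference. The number of arrays limits the precision. The 23 alternatives comprised 10 fits without 1 array and 13 changes of normalisation, probe set choice, intensity filter, variance model, array weights and tissue makeup.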

Additional observations from a re-analysis of the deposited data

Results flagged for a closer look

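Each of the 9 genes and Pcyt1a was checked within each group for an array far from its neighbours, and 2 of 20 groups had such an array; chance flags about 1 in 20. Msmo1 on control 7 lay at 8.23, below the next control at 8.71, and this gap was 0.738 of the control range. Control 7 was also the array highest in smooth muscle markers. Dhcr7 on knockout 2 lay at 8.89, below the next knockout at 9.04, a gap of 0.75 of the knockout range.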

How the results depend on the processing

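Over the 23 alternatives, Nsdhl and Hsd17b7 kept a positive difference with an unadjusted limma p under 0.05 in 23, with ranges of 0.41 to 0.66 and 0.37 to 0.56. Cyp51 stayed positive in 23 (0.23 to 0.83) and under that p in 21. The limma adjusted p was under 0.05 in 1 of the 23 for Nsdhl, in 1 for Cyp51 and in 0 for Hsd17b7. Tm7sf2, Msmo1, Ebp and Dhcr7 stayed positive in 23, while Sc5d was positive in 4 and Stard4 in 2. Without single arrays, 0 to 2 of the 9 genes passed over all genes, the 2 being Cyp51 and Nsdhl without knockout 2, and 1 to 3 did not overlap. Without the 3 arrays lowest in Paneth markers (control 6, knockout 2 and control 8), a choice made after seeing the data, 3 did not overlap. Both counts of 3 came from leaving out knockout 2, the array that overlapped the controls. Smaller groups separate more easily by chance. The share of all genes without overlap was not counted in these fits, so the counts have no background. The number of genes called among all tested was 6. It was 2 with median centring, a further quantile normalisation, the enterocyte covariate or without the 3 smooth muscle arrays, 10 with a variance trend and robust estimation, 69 without the 3 arrays lowest in Paneth markers and 227 with the Paneth level as covariate. Without single arrays it ran from 2 to 452, the latter without knockout 2. The cause was not tested. Overlap was counted only where the setting changes the values or arrays. No paired analysis was possible because the replicate numbers of the groups are not shared.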
